A study of Mus musculus with 14 samples.

Results

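Satellite cells from geriatric mice were set against those from young mice, gene by gene, on the autosomes. The comparison takes 5 of the 14 samples of the series: 3 Young samples from mice of 2, 2 and 3 months and 2 Geriatric samples, numbered 1 and 3, from mice of 30 and 29 months, all C57BL/6 mice labelled male. The 3 SAMR1 samples, from 12-month-old mice of the senescence-resistant strain SAMR1, serve as a reference beside each gene that changed. The other samples of the series, Old (mice of 22, 23 and 24 months) and SAMP8 (mice of 12 months), are not compared here. They entered the choice of probes and the estimate of spread. The cells were sorted from skeletal muscle by their surface antigens (integrin alpha 7 and CD34 present, CD31, CD45, CD11b and Sca1 absent), their RNA was amplified because the cell numbers were small, and each sample went onto a single-colour Agilent array. Of 32873 genes tested, 31009 had a probe on a named autosome, and 15089 of those carry a gene symbol.

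Satellite cells are the stem cells of skeletal muscle. They lie between the muscle fibre and its basement membrane, rest in quiescence, express the transcription factor Pax7, and enter the cell cycle after injury to form new fibres and to renew their own pool. Quiescence is held by Notch signalling, by contact with the laminins, nidogens and proteoglycans of the niche, and by inhibitors of the cell cycle. Satellite cells of very old mice have been described as losing reversible quiescence and as turning on Cdkn2a, a locus that Polycomb complexes keep silent in youth, and senescent cells in general secrete a mixture of cytokines, growth factors, proteases and protease inhibitors.

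Levels are given throughout as log2 of the processed signal relative to the array's own 75th percentile, so that 0 is a well-expressed gene and values near −8 are the floor of an array, where probes have no order. Differences are log2 changes, Geriatric minus Young, ± the standard error of the limma fit (n = 2 against 3), and "rose" or "fell" means a Benjamini-Hochberg adjusted p under 0.05 over all genes in that fit. By that rule 3.3% of the 15089 symbol genes were called, 2.22% higher (335 genes) and 1.08% lower (163 genes), the background against which each list's counts stand. Without any test, the Geriatric and Young samples did not overlap for 42.8% of the symbol genes, so a lack of overlap says little on its own. The split between higher and lower calls depends on the scaling: 67.3% of the calls were higher here and 78.5% with quantile normalization. Probe positions are those of mouse build mm9. Exon and UTR annotation was not used here.

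Age is not the only thing that differed between the 2 groups. All mice are labelled male, but Xist, the RNA that silences an X chromosome in female cells, read 5.69 ± 0.15 (SD, n = 3) in the Young samples and was not well above background in either Geriatric sample. Ddx3y, a gene of the Y chromosome, read 0.18 ± 0.14 (SD, n = 2) in the Geriatric and −0.069 ± 0.57 (SD, n = 3) in the SAMR1 samples and was not well above background in any Young sample. Kdm5d and Uty, also of the Y chromosome, were likewise well above background on all Geriatric and SAMR1 arrays and on no Young array. Eif2s3y, the other Y-linked gene tested, was well above background on every array, at −1.53 ± 0.35 (SD, n = 3) in Young, −0.43 ± 0.29 (SD, n = 2) in Geriatric and −0.46 ± 0.25 (SD, n = 3) in SAMR1 samples, and did not pass (adjusted p = 0.0765). Of the SAMR1 arrays 1 had Xist well above background, at −4.31, far below the Young level. By Xist, Ddx3y, Kdm5d and Uty the Young samples read as female and the Geriatric and SAMR1 samples as male. Age and this difference cannot be told apart between Geriatric and Young cells, which is why SAMR1 levels are set beside each gene that changed. SAMR1 is another strain of another age, so its levels do not separate the effects either.

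The arrays lay on 2 slides, by the array identifiers in the file headers. Both Geriatric samples and Young 2 were on the same slide, and Young 1 and Young 3 on the other. Within the slide that held both ages, where Young 2 was the only control, limma called 0 of the 498 symbol genes (1127 symbol genes had an unadjusted p below 0.05, and the lowest adjusted p was 0.0512). With slide as a block 283 of the 498 were still called. The Geriatric 1 array had 969 outlier spots, against 94 to 165 on the other 4 arrays compared.

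Markers of other cell types differed in level among the arrays. Pecam1, an endothelial gene that encodes the sorting antigen CD31, read −2.96, −4.95 and −0.85 in the Young and −3.52 and 0.11 in the Geriatric samples. The 20 endothelial markers had a summed linear level of 13.7 to 23.1 in Young, 19.5 to 24.9 in Geriatric and 69.6 to 140 in SAMR1 samples. Those of 7 red cell markers were 2.44 to 5.74, 2.00 to 2.70 and 25.1 to 54.8. The SAMR1 samples therefore carried more endothelial and red cell signal than the cells they are set beside. Of 24 leukocyte markers 0 passed, 3 had a positive and 21 a negative change, and their summed level was 271 to 376 in Young and 180 to 187 in Geriatric samples, most of it from Itgam (8.51, 8.03 and 8.37 in Young and 7.42 and 7.48 in Geriatric samples), which encodes CD11b, an antigen the sort selected against. Among 18 mesenchymal markers Dpt rose (1.48 ± 0.30, adjusted p = 0.0205) and Thy1 (−3.04 ± 0.55, adjusted p = 0.011) and Cxcl14 (−1.41 ± 0.35, adjusted p = 0.0487) fell, with SAMR1 means of −2.23 ± 0.18, 1.87 ± 0.75 and −1.75 ± 0.18 (SD, n = 3). For 7 tenocyte markers, of which 0 passed, the summed level was 3.57 to 4.10 in Young, 4.17 to 5.35 in Geriatric and 4.92 to 5.74 in SAMR1 samples. The part of these cells in any result was not tested.

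**Figure D1:**
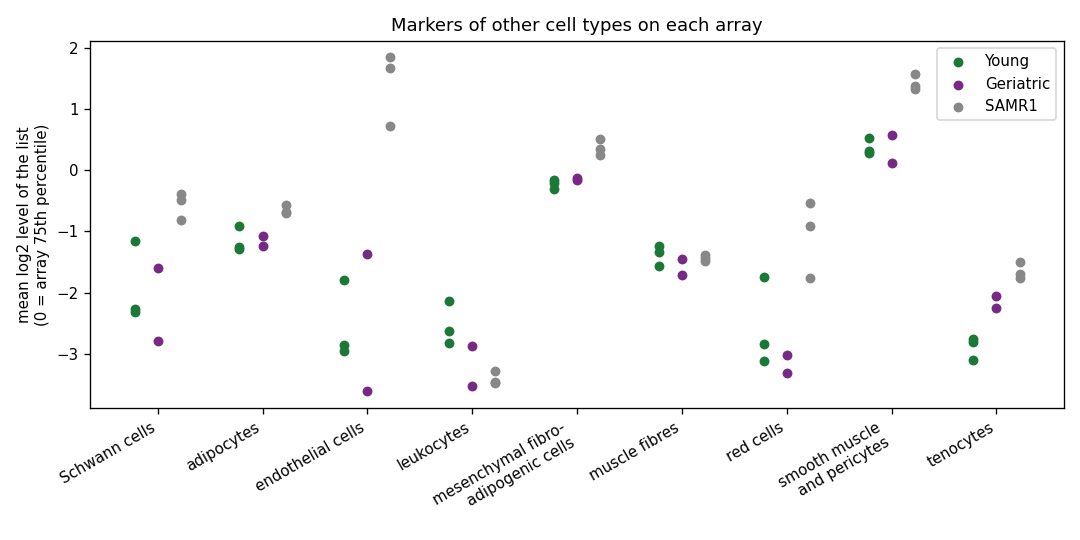
Mean log2 level (relative to the array's 75th percentile) of 9 lists of markers of other cell types on each Young, Geriatric and SAMR1 array, 1 point per array. Endothelial markers are higher on the 3 SAMR1 arrays than on any Young or Geriatric array, red cell markers are higher on 2 of the 3 while SAMR1 3 lies beside Young 3, and the endothelial lists of the 2 Geriatric arrays lie apart from each other.

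Genes that define satellite cells were among the brighter ones at both ages. Pax7, the defining factor of the lineage, read 3.91, 4.58 and 4.203 in Young, 4.11 and 4.11 in Geriatric and 3.67, 3.60 and 3.58 in SAMR1 samples. The integrin subunit Itga7 (1.10, 1.46 and 0.89 in Young, 0.83 and 0.90 in Geriatric samples) and the sialomucin Cd34 (2.46, 3.18 and 2.82 and 3.09 and 3.60), on which the cells were sorted, and the adhesion molecule Vcam1 (2.74, 2.79 and 2.73 and 2.47 and 2.48) did not pass the test (adjusted p = 0.595, 0.252 and 0.462). In all, 1 of 32 measured genes of satellite cell identity and quiescence rose and 0 fell, at a median change of −0.053 (0.14 with quantile normalization), against −0.025 over all symbol genes.

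The member of that list that rose was Hes1, a Notch target that represses the myogenic factors in resting cells. Hes1 read 0.32, 0.50 and 0.14 in Young, 1.77 and 2.15 in Geriatric and 1.59, 1.64 and 1.33 in SAMR1 samples, a change of 1.64 ± 0.24 (adjusted p = 0.00373, and 0.0529 without Geriatric 3). The Geriatric samples lay above all Young samples, as did the SAMR1 samples. Jag1, a Notch ligand, rose by 2.07 ± 0.45 (adjusted p = 0.0275), from −1.40, −0.57 and −1.02 to 0.71 and 1.44, with SAMR1 samples at 0.65, 0.61 and 0.49. Its call was lost without Young 1, Young 3, Geriatric 1 or Geriatric 3 (adjusted p of up to 0.214) and with slide as a block (adjusted p = 0.0729). Of 31 Notch pathway genes these 2 rose and 0 fell. The myogenic factors did not pass: Myf5 had a change of 1.29 ± 0.43 (adjusted p = 0.121), Myod1 of −0.36 ± 0.18 (adjusted p = 0.279) and Myog, which marks differentiating cells, of −0.69 ± 0.84 (adjusted p = 0.654). Of 23 genes of myogenic activation and differentiation 0 passed with limma, 4 had a positive and 19 a negative change, and their median was −0.44.

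Genes of cell division did not pass. Of 39 genes of the cell cycle and DNA replication 0 passed with limma, 9 changes were positive and 30 negative, and the median was −0.50. Young 1 stood apart: the list's mean level was −1.03 there, −1.79 and −1.94 in Young 2 and 3 and −2.07 and −2.15 in the Geriatric samples. Without Young 1 the median was −0.23. The nearest to the threshold was Mki67, a protein of dividing cells, at −1.12, −1.78 and −1.87 in Young, −3.02 and −2.72 in Geriatric and −2.95, −3.32 and −3.57 in SAMR1 samples (change −1.28 ± 0.33, adjusted p = 0.0529). Geriatric and Young samples did not overlap for Mki67, and the SAMR1 samples reached as low as the Geriatric ones. Ccne1, the cyclin that opens DNA replication, had a change of −1.24 ± 0.35 (adjusted p = 0.0729).

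Inhibitors of the cell cycle did not move as a group. Of 32 genes of cell cycle inhibition and senescence 1 rose and 0 fell, and the median was −0.063. Cdkn2a was dim and rose by 1.002 ± 0.24 (adjusted p = 0.0427), from −4.17, −3.95 and −4.19 in Young to −2.92 and −3.28 in Geriatric samples, beside −2.93, −3.34 and −2.80 in SAMR1 samples. Its samples did not overlap between Young and Geriatric, and the SAMR1 range held both Geriatric values. The call was lost without any 1 of 11 of the 14 arrays (adjusted p of up to 0.229), including each Young and each Geriatric array, and with quantile normalization (change 0.60, adjusted p = 0.0994). The neighbouring inhibitor Cdkn2b had a change of −0.85 ± 0.31 (adjusted p = 0.147), and Cdkn1a, a target of the tumour suppressor Trp53, of −1.21 ± 0.57 (adjusted p = 0.237), with overlapping samples (2.02, 3.58 and 2.85 against 2.28 and 0.92). Cdkn1b and Cdkn1c, inhibitors expressed in resting satellite cells, had changes of 0.18 ± 0.25 (adjusted p = 0.71) and −0.90 ± 0.73 (adjusted p = 0.492).

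Some secreted factors rose in Geriatric cells. Of 45 measured factors of the senescence-associated secretory phenotype 8 rose and 0 fell. Over the list 25 changes were positive and 20 negative, and the median was 0.080. The count was 6 without Geriatric 1, 3 without Geriatric 3 and 6 with slide as a block. The members that rose were the chemokine Ccl11, the cytokine Il15, the growth factors Hgf and Csf1, the protease inhibitors Serpine2 and Timp3, and Igfbp5 and Igfbp7. The inflammatory members Il6 (0.29, adjusted p = 0.718) and Il1b (−0.12, adjusted p = 0.802) did not pass.

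Ccl11, the chemokine eotaxin, which draws eosinophils, showed the widest difference of these. It read −5.90, −3.69 and −4.83 in Young (well above background on 2 of 3 arrays), 0.44 and 0.78 in Geriatric and −1.57, −1.63 and −2.22 in SAMR1 samples, a change of 5.41 ± 0.57 (adjusted p = 0.000589, at chr11:81876072-81876131). All Geriatric samples lay above all Young and all SAMR1 samples, but the difference from SAMR1 did not pass (2.42, adjusted p = 0.0614). Hgf, the growth factor that wakes satellite cells, read −4.41, −5.33 and −3.99 in Young, −1.14 and −0.076 in Geriatric and −0.73, −0.27 and −0.27 in SAMR1 samples (chr5:16124829-16124888). Its change was 3.97 ± 0.68 (adjusted p = 0.00822), which was not called without Geriatric 3 (adjusted p = 0.0949). Met, the Hgf receptor, did not pass (−0.33 ± 0.34, adjusted p = 0.587).

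Inhibitors of proteases rose with them. Serpine2, which blocks thrombin and plasminogen activators, read −1.79, −2.32 and −1.503 in Young, 1.05 and 1.05 in Geriatric and 0.28, 0.27 and 0.66 in SAMR1 samples (change 2.93 ± 0.26, adjusted p = 0.000216). Timp3, a matrix-bound inhibitor of metalloproteinases, read −0.73, −0.25 and −0.49, 1.87 and 2.24 and 3.05, 3.19 and 3.20 in the same order (change 2.54 ± 0.24, adjusted p = 0.000322). For Timp3 the SAMR1 samples were higher still than the Geriatric ones (−1.09 for Geriatric minus SAMR1, adjusted p = 0.046). Both calls held without any single array.

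The cytokine Il15, which acts on lymphocytes and muscle, was not well above background in any Young sample and read −4.72 and −4.60 in Geriatric and −1.82, −1.37 and −1.70 in SAMR1 samples. It was at least 1.78-fold higher in Geriatric than in Young cells, a bound that was not itself tested. The fitted change of Il15 was 2.90 ± 0.47 (adjusted p = 0.00612, and 0.0581 without Geriatric 3). With quantile normalization it was 0.61 (adjusted p = 0.0914). For every gene given as "at least", the adjusted p is that of the fitted change. Csf1, the growth factor of macrophages, rose by 1.33 ± 0.28 (adjusted p = 0.0217), from −0.97, −1.06 and −1.21 to 0.36 and 0.15, with SAMR1 samples at −0.31, −0.057 and 0.27. Igfbp5 and Igfbp7, proteins that bind insulin-like growth factors, read 1.16, 2.90 and 2.28 and −1.02, −0.78 and −0.89 in Young and 4.69 and 4.91 and 0.54 and 1.75 in Geriatric samples. Their SAMR1 levels were 4.32, 4.23 and 4.50 and 2.30, 2.42 and 1.93, above every Young sample. The change of Igfbp5 was 2.69 ± 0.49 (adjusted p = 0.0113, 0.0594 without Geriatric 1 and 0.0949 without Geriatric 3). That of Igfbp7 was 2.04 ± 0.41 (adjusted p = 0.0191, 0.0611 without Young 3, 0.187 without Geriatric 3 and 0.0623 with slide as a block). Of 23 genes of the insulin-like growth factor axis these 2 rose and 0 fell, and Igf2 had a change of 0.80 ± 0.23 (adjusted p = 0.0787).

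**Figure D2:**
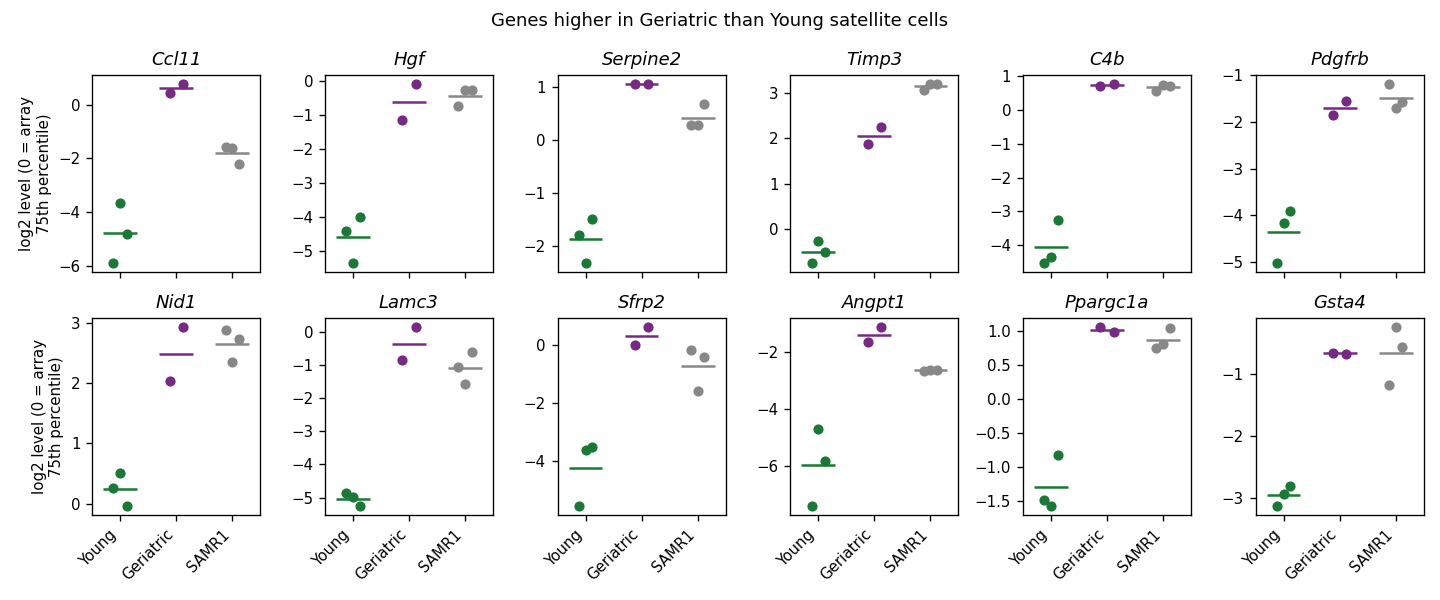
Log2 level (relative to the array's 75th percentile) of 12 genes that rose, 1 point per array and a line at the group mean, for 3 Young, 2 Geriatric and 3 SAMR1 arrays, with a vertical scale of its own in each panel. In each panel both Geriatric points lie above all Young points, and for C4b, Nid1, Pdgfrb, Hgf, Ppargc1a and Gsta4 the SAMR1 points lie at about the Geriatric level.

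Some genes of the complement cascade and of lipid transport rose in Geriatric cells. Complement proteins tag surfaces for clearance, and apolipoproteins carry cholesterol and other lipids between cells. Of 26 measured genes of this list 7 rose and 0 fell, 21 changes were positive and 5 negative, and the median was 0.54. The count was 4 without Geriatric 1, 4 without Geriatric 3, 5 without Young 3 and 6 with slide as a block, and the median stayed between 0.454 and 0.715 over all alternatives.

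C4b, a component of the classical and lectin pathways, read −4.52, −4.34 and −3.26 in Young, 0.72 and 0.78 in Geriatric and 0.57, 0.75 and 0.72 in SAMR1 samples (chr17:34865328-34865387). Its change was 4.79 ± 0.49 (adjusted p = 0.000412), and the SAMR1 samples lay at the Geriatric level (0.072 for Geriatric minus SAMR1, adjusted p = 0.977). C4b has a close copy beside it in the mouse, C4a, which encodes a sex-limited protein, so which copy the value stands for is uncertain. The proteases C2 (1.59 ± 0.29, adjusted p = 0.0123) and C1ra (1.24 ± 0.25, adjusted p = 0.0175) rose less, with SAMR1 samples at 1.64, 1.36 and 2.05 and 2.40, 2.83 and 2.61. C3, the hub of the cascade, had a change of 0.018 (adjusted p = 0.969), and C1qa, a gene of macrophages, one of −0.69 (adjusted p = 0.678).

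Among the lipid carriers, Apoc1, an apolipoprotein that inhibits lipases, read −1.71, −2.58 and −1.65 in Young, 0.84 and 1.47 in Geriatric and −0.53, −0.64 and −1.57 in SAMR1 samples (change 3.13 ± 0.45, adjusted p = 0.00334). The Geriatric samples lay above all others, and the difference from SAMR1 passed as well (2.07, adjusted p = 0.0423). Abcg1, a transporter that exports cholesterol, read −3.12, −2.54 and −2.91, −0.37 and −0.77 and 0.49, 0.61 and 0.74 in the same order (change 2.29 ± 0.38, adjusted p = 0.00675, and 0.0624 without Geriatric 1). Apoe, the neighbour of Apoc1 in the genome and among the brightest genes here at a mean level of 6.34 in Young cells, rose by 0.77 ± 0.18 (adjusted p = 0.0382). Its SAMR1 samples read 6.75, 6.81 and 6.75.

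Genes of the basement membrane and extracellular matrix rose in part. Of 45 measured genes 8 rose and 0 fell, with a median of 0.23. The count was 5 without Geriatric 1, 2 without Geriatric 3, 5 without Young 3 and 6 with slide as a block, and without Geriatric 3 the median turned to −0.11. The fibril collagens did not pass (Col1a1 0.45, adjusted p = 0.619, and Col3a1 −0.16, adjusted p = 0.78).

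The nidogens, which link laminin to collagen IV in the membrane that covers satellite cells, rose together. Nid1 read 0.25, 0.51 and −0.041 in Young, 2.03 and 2.93 in Geriatric and 2.87, 2.34 and 2.72 in SAMR1 samples (change 2.23 ± 0.29, adjusted p = 0.00186, at chr13:13530138-13555992). Nid2 had a mean level of −2.29 in Young, −0.12 in Geriatric and −0.94 in SAMR1 cells (change 2.17 ± 0.40, adjusted p = 0.012). Collagen IV itself did not pass (Col4a1 0.06, adjusted p = 0.945, and Col4a2 −0.12, adjusted p = 0.882). The laminin chain Lamc3, named for the size of its change rather than from this list, read −4.87, −4.999 and −5.26, −0.86 and 0.15 and −1.05, −1.57 and −0.59 in Young, Geriatric and SAMR1 samples (change 4.69 ± 0.43, adjusted p = 0.000254).

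Spock3, a testican that carries heparan sulfate chains, stood apart by its SAMR1 level. It was not well above background in any Young or SAMR1 sample (−7.63, −7.69 and −7.69 and −7.25, −8.20 and −7.97) and read −2.52 and −2.31 in Geriatric samples (chr8:65835832-65835891). That is at least 8.41-fold higher than in Young cells (adjusted p = 7.79e-06). Its relative Spock2 read −0.46, −1.91 and −1.21 in Young, 1.11 and 1.24 in Geriatric and 1.20, 0.81 and 1.44 in SAMR1 samples (change 2.37 ± 0.38, adjusted p = 0.0065, and 0.0618 without Geriatric 3), so that for Spock2 the SAMR1 samples were near the Geriatric level. Fbln5, a protein of elastic fibres, rose by 2.51 ± 0.45 (adjusted p = 0.0113, 0.0783 without Geriatric 1 and 0.0689 without Geriatric 3), from −5.25, −4.40 and −4.75 to −2.18 and −2.40, with SAMR1 samples at −1.77, −1.96 and −1.53. Smaller rises were those of Thbs2 (1.37 ± 0.29, adjusted p = 0.0236), Col18a1 (1.37 ± 0.30, adjusted p = 0.0266) and Tnxb (1.01 ± 0.25, adjusted p = 0.0466), an adhesion regulator, a basement membrane collagen and a tenascin. Their SAMR1 means were 2.00 ± 0.31, 0.97 ± 0.19 and 3.13 ± 0.12 (SD, n = 3).

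**Figure D3:**
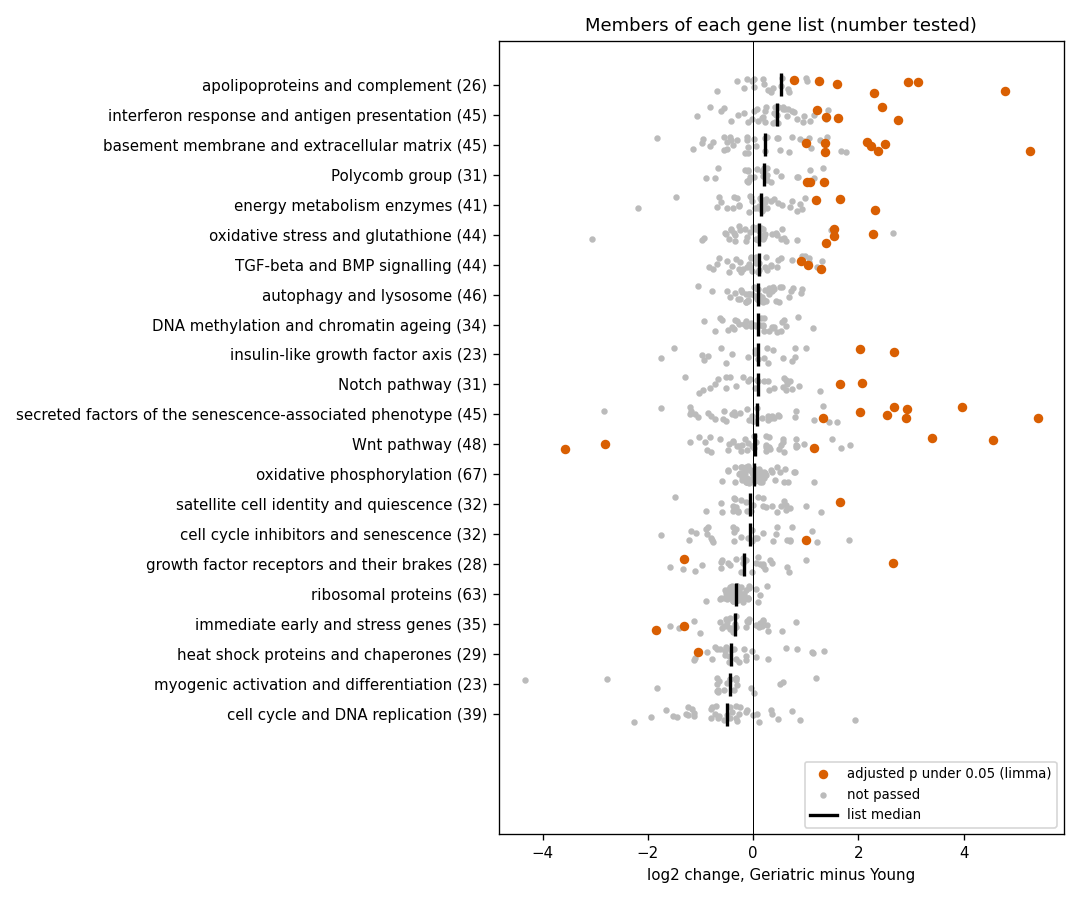
Log2 change, Geriatric minus Young, of each measured member of 22 gene lists, ordered by the list median (black bar), with members that passed limma's test at an adjusted p under 0.05 in orange and the others in grey. The apolipoprotein and complement list has the highest median (0.54) with 7 of 26 members called, and the cell cycle list the lowest (−0.50) with 0 called.

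Wnt signalling held changes in both directions. Wnt ligands act through Frizzled receptors, and secreted proteins of the Sfrp and Dkk families restrain them. Of 48 genes 3 rose and 2 fell, with a median of 0.041. Sfrp2 read −5.58, −3.65 and −3.54 in Young (well above background on 2 of 3 arrays), −0.0017 and 0.62 in Geriatric and −0.17, −1.58 and −0.42 in SAMR1 samples, a change of 4.57 ± 0.62 (adjusted p = 0.00249, at chr3:83577864-83577923). The Geriatric and SAMR1 samples all lay above the Young ones. Dkk2, an inhibitor that binds the Wnt coreceptors, went the other way: it read −3.60, −5.15 and −4.88 in Young samples and was not well above background in any Geriatric or SAMR1 sample. It was at least 3.14-fold lower in Geriatric cells (adjusted p = 0.00175), and with quantile normalization its change was −0.79 (adjusted p = 0.0651).

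The Wnt receptor Fzd4 read 1.05, 0.93 and 0.75 in Young, 1.86 and 2.27 in Geriatric and 1.73, 1.68 and 1.75 in SAMR1 samples (change 1.15 ± 0.25, adjusted p = 0.0252). The coreceptor Ror2, well above background on 1 of 3 Young arrays, rose by 3.39 ± 0.79 (adjusted p = 0.036), from −4.48, −7.72 and −6.53 to −2.66 and −3.04, with SAMR1 samples at −3.28, −3.03 and −2.18. Both calls were lost with slide as a block (adjusted p = 0.0649 and 0.0822) and without Young 2, Young 3, Geriatric 1 or Geriatric 3 (adjusted p of up to 0.21 and 0.162), that of Ror2 also without SAMR1 1 or 2. Rspo1, a secreted amplifier of Wnt signals, lay far below its SAMR1 level in both other groups: it read −4.19, −4.21 and −3.21 in Young, −5.21 and −8.17 in Geriatric and 0.20, 0.68 and 0.47 in SAMR1 samples. Its fall against Young (−2.82 ± 0.67, adjusted p = 0.0408) was lost without any 1 of 10 arrays (adjusted p of up to 0.251), among them each Young array and Geriatric 3, with slide as a block (adjusted p = 0.113) and with quantile normalization (change −0.79, adjusted p = 0.112).

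TGF-beta and BMP signalling had 3 of 44 genes higher and 0 lower, with a median of 0.10. They were the receptors Tgfbr2 (1.29 ± 0.26, adjusted p = 0.0178) and Acvr2a (1.05 ± 0.25, adjusted p = 0.0431) and the BMP target Id1 (0.92 ± 0.21, adjusted p = 0.0316). Tgfbr2 had SAMR1 samples at 0.68, 0.64 and 0.60, Acvr2a at −0.13, 0.37 and 0.25 and Id1 at −0.60, −0.48 and −0.51, against Young samples at −0.95, −0.36 and −0.87, −0.76, −0.63 and −0.76 and −1.16, −1.37 and −1.53. None of these 3 calls held without Geriatric 1 or without Geriatric 3 (adjusted p of up to 0.133, 0.242 and 0.209 over all arrays left out, which for each gene included further arrays). Acvr2a was lost too with slide as a block (adjusted p = 0.0962) and with quantile normalization (adjusted p = 0.052).

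Growth factor receptors differed at single genes. Pdgfrb, the platelet-derived growth factor receptor of pericytes and mesenchymal cells, read −5.01, −4.15 and −3.90 in Young, −1.85 and −1.55 in Geriatric and −1.18, −1.69 and −1.57 in SAMR1 samples (change 2.66 ± 0.35, adjusted p = 0.00224). The Geriatric and SAMR1 samples lay together above the Young ones. Of 16 markers of smooth muscle and pericytes, a list that holds Pdgfrb, 2 rose and 1 fell. Their summed level spanned 344 to 362 for Young arrays and 231 to 242 for Geriatric ones. Most of that sum came from Mcam, Des and Notch3, which did not pass (adjusted p = 0.132, 0.0903 and 0.898). The mean log2 level of the list overlapped between the groups (Young 0.28 to 0.53, Geriatric 0.12 to 0.58). The part of pericytes in the rise of Pdgfrb was not tested. Angpt1, a ligand that stabilises vessels and that satellite cells also make, read −7.42, −4.72 and −5.84 in Young (well above background on 1 of 3 arrays), −1.67 and −1.13 in Geriatric and −2.68, −2.62 and −2.62 in SAMR1 samples (change 4.60 ± 0.69, adjusted p = 0.00416). Spry1, a brake on fibroblast growth factor signals in resting cells, had a change of 0.996 ± 0.36 (adjusted p = 0.145).

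Genes switched on quickly by stimulation or stress were lower at 2 members. Of 35 immediate early and stress genes 0 rose and 2 fell, 24 changes were negative and 11 positive, and the median was −0.34 (−0.046 with quantile normalization and −0.17 without Geriatric 3). Nr4a2, a nuclear receptor made within minutes of stimulation, read 2.22, 2.55 and 2.19 in Young, 0.62 and 0.32 in Geriatric and 1.37, 1.31 and 1.47 in SAMR1 samples (change −1.85 ± 0.23, adjusted p = 0.00166). Its SAMR1 samples lay between the other groups, overlapping neither. Dusp6, the phosphatase that restrains ERK, read 1.73, 1.81 and 1.24, 0.28 and 0.28 and 1.46, 1.14 and 1.59 (change −1.32 ± 0.24, adjusted p = 0.0125). Here the SAMR1 samples were at about the Young level (−1.12 for Geriatric minus SAMR1, adjusted p = 0.0423). The call of Dusp6 was lost without Geriatric 1 (adjusted p = 0.0763) or Geriatric 3 (adjusted p = 0.0933). The small heat shock protein Hspb1, which protects the cytoskeleton, was the only one of 29 chaperone genes that passed: it fell by 1.05 ± 0.24 (adjusted p = 0.0317), from 4.63, 4.70 and 4.58 to 3.63 and 3.55, with SAMR1 samples at 4.49, 4.30 and 4.84. It was lost with slide as a block (adjusted p = 0.0733), with quantile normalization (adjusted p = 0.0654) and without any 1 of the 5 arrays compared or SAMR1 1 (adjusted p of up to 0.183).

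Glutathione transferases, which couple glutathione to oxidised lipids and foreign compounds, accounted for all 4 of the genes that rose among 44 of oxidative stress and glutathione, while 0 fell. The other transferases of the list did not pass. Over the list 26 changes were positive and 18 negative, and the median was 0.105. Gsta4, which clears a product of lipid peroxidation, read −3.12, −2.92 and −2.80 in Young, −0.66 and −0.68 in Geriatric and −1.17, −0.25 and −0.56 in SAMR1 samples (change 2.28 ± 0.31, adjusted p = 0.00266). Gstm2 read 1.78, 2.26 and 1.87, 3.22 and 3.79 and 2.98, 3.08 and 2.52 (change 1.54 ± 0.25, adjusted p = 0.00605). Gstt1 (1.53 ± 0.26, adjusted p = 0.00764) and Gstk1 (1.39 ± 0.24, adjusted p = 0.0098) rose by similar amounts, with SAMR1 samples at 2.22, 2.09 and 2.53 and 1.496, 1.46 and 0.94. For these 4 genes the SAMR1 samples lay above every Young sample. Without Geriatric 3 the calls of Gstm2, Gstt1 and Gstk1 were lost (adjusted p = 0.0768, 0.0903 and 0.0784), and that of Gstk1 without Geriatric 1 too (adjusted p = 0.0626). Gstm2 belongs to a family of near-identical copies, so its value may include a relative.

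Energy metabolism had 3 of 41 genes higher and 0 lower. Ppargc1a, the coactivator that drives the making of mitochondria, read −1.48, −1.58 and −0.83 in Young, 1.06 and 0.98 in Geriatric and 0.74, 0.81 and 1.04 in SAMR1 samples (change 2.32 ± 0.25, adjusted p = 0.000589, at chr5:51848928-51848987). All Geriatric and SAMR1 samples lay above all Young samples. As the mean of its probes the change was 1.56 (adjusted p = 0.0772). Of 67 genes of oxidative phosphorylation 0 passed, 36 changes were positive and 31 negative, and the median was 0.023. Ldhb, the lactate dehydrogenase of oxidative tissues, rose by 1.65 ± 0.26 (adjusted p = 0.00497, and 0.0652 without Geriatric 3), from −2.49, −3.02 and −2.82 to −1.43 and −0.82, beside −1.61, −1.34 and −1.61 in SAMR1 samples. Pfkfb3, which speeds glycolysis, rose by 1.19 ± 0.27 (adjusted p = 0.0351), with SAMR1 samples at 1.002, 1.21 and 0.43 against −0.30, 0.015 and 0.08 in Young samples. It was a call lost without any 1 of the 5 arrays compared or SAMR1 1 (adjusted p of up to 0.161) and with slide as a block (adjusted p = 0.0832). Of 46 genes of autophagy and the lysosome 0 passed. Pink1, which marks damaged mitochondria for removal, had a change of 0.71 ± 0.22 (adjusted p = 0.0969) against Young and of 1.45 (adjusted p = 0.00721) against SAMR1. Ribosomal proteins had 0 of 63 genes past the test and a median of −0.33, which was 0.072 with quantile normalization.

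Chromatin regulators of the Polycomb group, which silence genes through histone marks, had 3 of 31 members higher and 0 lower, with a median of 0.20. Cbx7, a subunit that reads the repressive mark, read −1.84, −0.99 and −1.48 in Young, −0.26 and 0.093 in Geriatric and −0.10, −0.13 and −0.45 in SAMR1 samples (change 1.35 ± 0.26, adjusted p = 0.0146, 0.0543 without Young 3 and 0.144 without Geriatric 3). Eed and Phf1 were the others, with SAMR1 levels of −1.04, −1.65 and −1.33 and −0.24, −0.13 and −0.18 against Young levels of −2.74, −2.17 and −2.38 and −2.17, −1.38 and −1.87. The count was 1 with slide as a block, 1 without Geriatric 1 and 0 without Geriatric 3. Of 34 genes of DNA methylation and chromatin ageing 0 passed.

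Interferon-stimulated genes are turned on together by a complex of transcription factors, which binds a short element in their promoters. Of 45 genes of the interferon response and antigen presentation 5 rose and 0 fell, 36 changes were positive and 9 negative, and the median was 0.44. The upstream windows of Ifit1 and Ifit3, which bind viral RNA and both lie on chromosome 19, are printed because each holds 3 matches to the core of that element. They span the 250 bases before the start of each gene, in the direction of transcription, from RefSeq (GRCm38.p6), and capitals mark matches to GAAANNGAA or its reverse complement. In Ifit1 2 of the matches overlap.
Ifit1, chr19:34640639-34640888, plus strand: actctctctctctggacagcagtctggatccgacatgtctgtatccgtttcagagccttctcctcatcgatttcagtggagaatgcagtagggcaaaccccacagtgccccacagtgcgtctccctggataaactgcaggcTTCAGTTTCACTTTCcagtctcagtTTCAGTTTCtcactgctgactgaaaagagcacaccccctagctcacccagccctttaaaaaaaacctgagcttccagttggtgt
Ifit3, chr19:34583279-34583528, plus strand: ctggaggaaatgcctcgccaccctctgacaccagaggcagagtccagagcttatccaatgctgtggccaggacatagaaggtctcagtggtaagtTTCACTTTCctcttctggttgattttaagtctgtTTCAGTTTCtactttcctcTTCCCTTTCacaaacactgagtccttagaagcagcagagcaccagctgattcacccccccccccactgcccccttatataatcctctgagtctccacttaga
Searched on both strands, the motif was in 2342 of 32851 windows of that length (7.13%). Of 38 genes of the list with a window, 15 (39.5%) had it in any of their windows. The first share counts windows and the other counts genes, so they are not alike. The window of Ifih1, which also rose, has 1 match, and that of Psmb8 has none. For Tap2, which rose too, no window was found by name. A match describes letters and does not show binding.

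Ifit1 read −4.52, −2.62 and −2.83 in Young, −0.59 and −1.15 in Geriatric and −1.19, −1.70 and −2.34 in SAMR1 samples (change 2.45 ± 0.60, adjusted p = 0.0444). Ifit3 read −2.61, −1.09 and −1.02, 1.30 and 1.07 and 0.85, −0.093 and −0.35 in the same order (change 2.76 ± 0.62, adjusted p = 0.0322). Ifit3 has a near-identical neighbour, so its value may hold both. The call of Ifit1 was lost without any 1 of 12 of the 14 arrays (adjusted p of up to 0.207) and with slide as a block (adjusted p = 0.123). Young 1 was the lowest sample for both genes, and the Geriatric samples lay above all Young samples. Psmb8, a subunit of the immunoproteasome, rose by 1.62 ± 0.30 (adjusted p = 0.0128), from 0.36, 0.65 and 0.60 to 2.29 and 2.02, with SAMR1 samples at 2.16, 2.39 and 2.11. The RNA sensor Ifih1 (1.38 ± 0.31, adjusted p = 0.0316) and the peptide transporter subunit Tap2 (1.21 ± 0.30, adjusted p = 0.0482) rose as well, with SAMR1 samples at −0.82, −1.28 and −0.94 and 0.15, 0.21 and 0.31 against Young samples at −2.21, −1.12 and −1.68 and −1.13, −0.54 and −0.96. Isg15, a ubiquitin-like target of the pathway, did not pass (change 0.075, adjusted p = 0.867). The 5 calls fell to 0 without Geriatric 1, to 0 without Geriatric 3, to 1 without Young 1 or Young 3 and to 1 with slide as a block, while the median stayed between 0.29 and 0.64 over all alternatives.

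Among single genes with the largest rises were several that are better known from other tissues. Grhl1, a transcription factor of epithelia, was not well above background in any Young sample, read −1.74 and −2.30 in Geriatric and −3.01, −2.96 and −3.94 in SAMR1 samples, and was at least 11-fold higher than in Young cells (adjusted p = 0.000328, at chr12:25302095-25302154). Mip, a water channel of the eye lens, read −5.39 ± 0.98 (SD, n = 3) in Young, where 1 of 3 arrays was well above background, −0.44 ± 0.62 (SD, n = 2) in Geriatric and −2.40 ± 0.73 (SD, n = 3) in SAMR1 samples (change 4.95 ± 0.59, adjusted p = 0.0013). Ap1s3, a subunit of a vesicle coat adaptor, was at least 7.74-fold higher (adjusted p = 0.00249), at −2.45 and −2.62 in Geriatric and −4.40, −4.37 and −5.23 in SAMR1 samples. These 3 calls held without any single array. Doc2b, a calcium sensor of vesicle release, was at least 6.83-fold higher (adjusted p = 0.0457), but without any 1 of 10 arrays, among them each of the 5 compared, it was not called (adjusted p of up to 0.207). Doc2b read −2.78 and −2.65 in Geriatric and −3.26, −6.77 and −3.53 in SAMR1 samples, where 2 of 3 arrays were well above background.

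Several genes differed from SAMR1 as well as from Young in the same direction. They were selected for passing both comparisons, which share the Geriatric arrays, and for no overlap of Geriatric with Young samples. They are given as levels. Of the symbol genes 2.23% differed between Geriatric and SAMR1 samples (137 or 0.908% higher, 199 or 1.32% lower). Cyp4f15, a cytochrome P450 of fatty acid hydroxylation, was not well above background in any Young sample (−6.82, −5.51 and −6.81), read −0.46 and −1.33 in Geriatric and −5.04, −4.06 and −7.80 in SAMR1 samples, and was at least 23.4-fold higher than in Young cells (adjusted p = 0.00654, and 0.0592 without Geriatric 1). Cyp26a1, the enzyme that breaks down retinoic acid, spread widely among Young samples (−5.43, −1.17 and −3.97) and read 2.20 and 1.35 in Geriatric and −4.42, −4.38 and −6.89 in SAMR1 samples. Its call (adjusted p = 0.0481) was lost with slide as a block (adjusted p = 0.136) and without any 1 of 10 arrays (adjusted p of up to 0.203), among them Young 1, Young 3, Geriatric 1 and Geriatric 3.

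Nell1, a secreted protein of bone formation, read −7.48, −5.40 and −6.45 in Young (well above background on 1 of 3 arrays) and −2.40 and −3.68 in Geriatric samples and was not well above background in any SAMR1 sample (change 3.41 ± 0.53, adjusted p = 0.00522, and 0.0549 without Geriatric 1). Sv2b, a glycoprotein of synaptic vesicles, was not well above background in any Young or SAMR1 sample, read −2.78 and −1.85 in Geriatric samples and was at least 8.91-fold higher than in Young cells (adjusted p = 0.0123, and 0.124 without Geriatric 3). Coch, an extracellular protein of the inner ear, was at least 4-fold higher than in Young cells (adjusted p = 0.000321), at −3.89 and −3.08 in Geriatric and −5.43, −5.01 and −5.15 in SAMR1 samples. Gnai1, an inhibitory G protein subunit, read −4.89, −4.39 and −4.89, −1.58 and −1.67 and −4.28, −4.27 and −5.73 in Young, Geriatric and SAMR1 samples (change 3.09 ± 0.47, adjusted p = 0.00457). For all of these genes the Geriatric samples lay above every SAMR1 sample. Lying above every Young sample was a condition of their choice.

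Falls below both Young and SAMR1 levels were found for Alox12, the arachidonate lipoxygenase of platelets and skin. It read −2.00, −2.92 and −1.48 in Young, −8.25 and −8.17 in Geriatric and −2.00, −3.28 and −2.54 in SAMR1 samples (adjusted p = 0.00231). The Geriatric samples lay near the floor, with 1 of 2 arrays well above background by any probe of the gene. The size of the fitted change (−6.07 ± 0.81) therefore depends on that floor. Abcc9, which couples potassium channels of muscle to the energy state of the cell, read −1.21, −0.83 and −1.05, −4.65 and −3.29 and −0.95, −0.75 and −1.41 (change −2.94 ± 0.45, adjusted p = 0.00497, at chr6:142536920-142536979). The calcium-binding protein S100a7a was not well above background in either Geriatric sample and was at least 4.75-fold lower than in Young cells (adjusted p = 0.00212), with −4.14, −3.69 and −3.998 in Young and −4.52, −3.34 and −3.61 in SAMR1 samples. With quantile normalization its change was −0.72 (adjusted p = 0.0955). Zfp820, a zinc finger gene, fell by 1.99 ± 0.33 (adjusted p = 0.00683, and 0.078 without Geriatric 3), from −1.88, −2.18 and −1.30 to −3.58 and −3.98, with SAMR1 samples at −1.93, −1.79 and −2.36.

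Rel, a subunit of the transcription factor NF-kappaB, read −4.14, −3.28 and −3.82 in Young and −3.73, −3.82 and −3.59 in SAMR1 samples and −7.75 in Geriatric 3. Its spot on Geriatric 1 was an outlier and was left out, so the fall (adjusted p = 0.00428) rests on 1 Geriatric array. With outlier spots kept the change was −1.03 (adjusted p = 0.647), and with quantile normalization −0.85 (adjusted p = 0.22). Procr, the protein C receptor of endothelial cells, and Ifi202b, an interferon-inducible DNA sensor, had SAMR1 levels (−0.95, −0.68 and −1.14 and −2.70, −3.35 and −2.51) above both other groups. Their falls against Young were at least 2.42-fold for Procr (2 of 3 Young arrays well above background, adjusted p = 0.0177) and 2.64 ± 0.60 on the log2 scale for Ifi202b (adjusted p = 0.0339). Both were lost with slide as a block (adjusted p = 0.0608 and 0.0946), with quantile normalization (adjusted p = 0.452 and 0.53) and without Young 3, Geriatric 1 or Geriatric 3 (adjusted p of up to 0.159 and 0.242), that of Ifi202b also without Young 1, Young 2 or SAMR1 1.

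**Figure D4:**
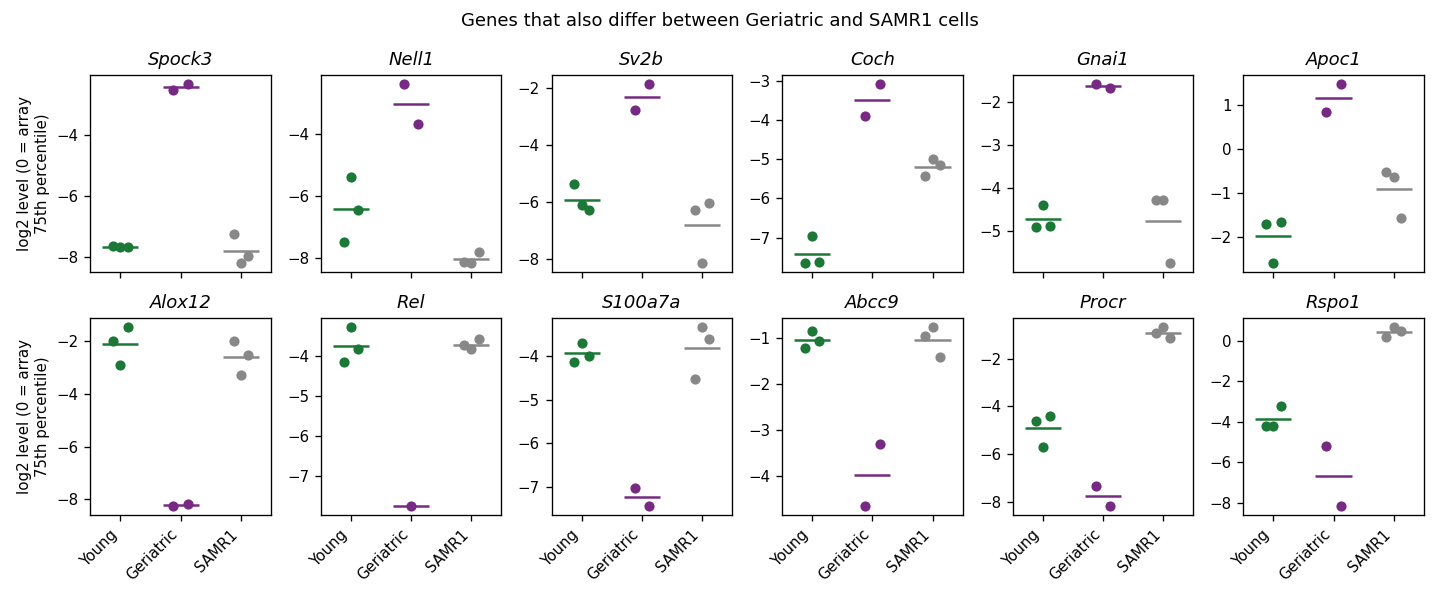
Log2 level (relative to the array's 75th percentile) of 12 genes that differ between Geriatric and both Young and SAMR1 arrays, 1 point per array and a line at the group mean, with a vertical scale of its own in each panel. The Geriatric points lie above both other groups for Spock3, Nell1, Sv2b, Coch, Gnai1 and Apoc1 and below both for the other 6 genes. No overlap with the Young arrays was a condition of choosing these genes. Rel has 1 Geriatric point, because its other spot was an outlier.

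Other falls against Young were found in genes better known from other tissues. Most were well above background in Young samples but not in Geriatric ones, so only bounds are given. Hrnr, which encodes hornerin of the outer skin, was at least 92.2-fold lower (adjusted p = 0.0194), with widely spread Young (−1.61, 1.53 and 1.08) and SAMR1 (−2.74, −7.23 and −0.58) samples. Its call was lost with slide as a block (adjusted p = 0.0686) and without Young 2, Young 3, Geriatric 1 or Geriatric 3 (adjusted p of up to 0.158). Mrgpra9, a receptor of the Mas-related family of sensory neurons, was at least 5.23-fold lower (adjusted p = 0.00058), and with quantile normalization its change was −0.96 (adjusted p = 0.074). Tm7sf4, now named Dcstamp, a protein of cell fusion in osteoclasts, was at least 9.57-fold lower (adjusted p = 0.00877), a call lost without Geriatric 1 (adjusted p = 0.0602), without Geriatric 3 (adjusted p = 0.0675) and with quantile normalization (adjusted p = 0.165). Neither Mrgpra9 nor Tm7sf4 was well above background in any SAMR1 sample.

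The major urinary proteins Mup9, Mup20 and Mup4, which carry pheromones and are made mainly by the liver, were at least 17.4, 12 and 17.7-fold lower (adjusted p = 0.0137, 0.0323 and 0.005). All 3 calls were lost without Geriatric 1 (adjusted p = 0.0546, 0.11 and 0.0512), and those of Mup9 and Mup20 also without Young 3 or Geriatric 3 (adjusted p of up to 0.125 and 0.192). The call of Mup20 was further lost without Young 1 or Young 2 and with slide as a block (adjusted p = 0.0895), and that of Mup9 with quantile normalization (change −2.01, adjusted p = 0.0697). Speer4a and Speer4b, genes of the testis, read 0.99, 1.96 and 2.67 and 0.93, 1.88 and 2.46 in Young and −1.33, −0.70 and −0.99 and −2.41, −0.98 and −1.99 in SAMR1 samples. Speer4a was measured on Geriatric 3 alone, where it read −3.12, and with outlier spots kept its change was −2.77 (adjusted p = 0.139). Speer4b read −1.54 and −3.85 in the Geriatric samples (change −4.46 ± 0.71, adjusted p = 0.00594, and 0.0635 without Geriatric 3). Zscan4a, a gene of early embryos, was at least 8.64-fold lower (adjusted p = 0.00543, and 0.0503 without Geriatric 3). The Mup, Speer4 and Zscan4 genes are families of near-identical copies, whose members a probe may not separate. Mup9, Mup20 and Zscan4a were not well above background in any SAMR1 sample, and Mup4 was on 1 of 3 arrays.

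Falls were more frequent than rises outside the symbol class. Of 992 autosomal chemosensory receptors, which smell and taste cells use, 1 rose and 136 fell (13.7% lower), at a median change of −1.04. Of 4295 intergenic probes 35 rose and 92 fell (2.14% lower), at a median of −0.33. Of 10633 genes with other names, such as clone identifiers, 117 rose and 383 fell (3.6% lower). Over all 31009 autosomal genes 4.07% were called, 488 higher (1.57%) and 774 lower (2.5%), so the share of intergenic probes that fell was below that of all genes. With quantile normalization, as with the authors' values, 550 autosomal genes were higher and 521 lower, which turns the excess of falls around in that total. Of these, 386 and 106 were symbol genes, so outside the symbol class falls still outnumbered rises. The arrays also differed in the ratio of median signal to median background. It was 6.29, 6.24 and 6.62 on the Young, 7.83 and 8 on the Geriatric and 7.8, 8.3 and 8 on the SAMR1 arrays. The part of this ratio in the falls of dim probes was not tested. Chromosome by chromosome the share of symbol genes called ran from 2.04% (chromosome 18) to 4.68% (chromosome 10).

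Single arrays weighed on the counts. The 498 symbol genes called were 229 without Young 3, 362 without Young 1, 202 without Geriatric 1 and 152 without Geriatric 3, and 128 when the fit held the 5 compared arrays alone. Of the 74 genes named by the rule for printing that passed, 27 were called whichever array was left out, 56 with slide as a block and 29 with the 5 arrays alone. Without the filter on dim probes Acvr2a, Cdkn2a, Cyp26a1, Doc2b and Ifit1 were not called, and as the mean of their probes Ifih1, Phf1, Ppargc1a and Ifi202b were not. Quantile normalization ended the call of Eed as well (adjusted p = 0.0533). Of 142 called symbol genes with several kept probes, 17 had probes of opposite sign.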

How the data were processed

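RNA of sorted satellite cells was measured on single-colour Agilent arrays, 14 in all. Per the file headers, the deposited scanner files hold the linear, background-subtracted intensity of each spot from Agilent Feature Extraction (version 10.7.3.1). The authors' deposited table holds log2 values. How they were made is not stated in any source used for this text, but they equalled a normexp correction with offset 50 plus quantile normalization to within 0.000117, and every column had a median of 7.80. Here control spots (3671) and outlier spots were left out, and the processed intensity was taken as log2 and reduced by each array's 75th percentile. Of 55681 probes, 49930 were kept because 2 or more arrays of the same group detected them well above background, and the brightest kept probe stood for each of 32873 genes, named as in the array design. A gene counted as well above background on an array when any of its probes was, which need not be the probe whose level is given. In the fit 524 values were missing.

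The test was limma's (version 3.58.1, R 4.3.3) with lmFit and eBayes, two-sided, on all 14 arrays. It had a coefficient for each group (Young, Old, Geriatric, SAMR1 and SAMP8), and p-values were adjusted by Benjamini-Hochberg over every gene. The script was tested on simulated data. A gene undetected on every array of a group has only a bound ("at least"), computed from the mean of the detected group and, for each array of the other group, whichever is larger of the probe's signal and the dimmest detected probe. The adjusted p printed beside a bound tests the fitted log2 change and not the bound. The labels call the samples biological replicates. The number of arrays limits the precision.

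Genes named are the 12 largest rises and falls without overlap and the 8 each way without overlap that also differ from SAMR1. Named too are the 4 passing members of each list with the lowest p (or 2 members where none passed), and some set by name. The other genes printed with values, namely further members of a list or a marker list, were chosen after their values were seen. The members, lists and tests were chosen with earlier results of these data known. Alternatives were the scaling, the authors' values, the filter on dim probes, the handling of outlier spots and of several probes, fewer arrays in the fit, array weights, the slide, the replicate number as a block, and leaving out each array. Some measured genes of the lists are counted in them but not reported here by name.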

Additional observations from a re-analysis of the deposited data

How the results depend on the processing

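Over 27 other settings, 2511 values of single genes kept their direction and their side of the threshold, 371 lost a call, 18 gained one and 14 changed sign, all in genes that had not passed. Counts of autosomal genes higher and lower (488 and 774) were 96 and 277 with the Young and Geriatric arrays alone, 305 and 480 with the slides blocked, 0 and 0 within slide 2, 839 and 1522 with array weights, and 168 to 528 and 206 to 886 with single arrays left out. Counts of symbol genes (335 and 163) were 72 and 56, 207 and 102, 0 and 0, and 590 and 381 in the same settings, 386 and 106 with quantile normalization and with the authors' values (550 and 521 for autosomal genes), and 108 to 370 and 44 to 194 with single arrays left out. With the replicate number as a block (replicate block) they were 303 and 488 for autosomal and 218 and 89 for symbol genes. Whether the numbers pair the samples cannot be told from deviations from the group means, because those of the 2 Geriatric arrays mirror each other. Deviations of Young 1 and Geriatric 1 correlated with r = −0.0621 and those of Young 3 and Geriatric 3 with r = −0.128. Those of Young 3 and Geriatric 1, which differ in number, had r = 0.13. Sign changes were those of Pax7 (0.17) and Itgb1 (0.028) with quantile normalization and the authors' values, Vcam1 (0.0082) as the mean of its probes, and Cdkn1b by slide (−0.032 blocked, −0.075 within slide 2). With single arrays left out, the changes ran from −0.28 to 0.054 for Pax7, −0.047 to 0.40 for Cdkn1b, −0.13 to 0.33 for Ptprc, −1.41 to 0.018 for Myog, −0.67 to 0.0097 for Met and −0.60 to 3.03 for Pecam1. The cause of these changes was not tested, except that settings with fewer arrays leave fewer residual degrees of freedom. Between 79.6% and 84.6% of probes were well above background on the 5 arrays, and dim genes give bounds only.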
